A study of Mus musculus with 4 samples.

Results

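Polycomb repressive complex 2 (PRC2) was examined as 10 genes in hearts of mice at postnatal day 7 (P7), out of 24454 genes with counts. They were taken by symbol, as 6 core genes (*Suz12*, *Ezh1*, *Ezh2*, *Eed*, *Rbbp4* and *Rbbp7*) and 4 accessory genes (*Jarid2*, *Mtf2*, *Phf19* and *Aebp2*). All 10 passed the filter on low counts. RNA-seq was available for 2 Ctrl libraries (WH7 and WH8) and 2 miR-128OE libraries (WH9 and WH10). Per the study's methods, Ctrl mice carried the tetO-driven *miR-128* cassette, knocked into the *Rosa26* locus, without an activator. The miR-128OE mice carried the same cassette and the *α-MHC*-tTA transgene, a "Tet-off" activator made in cardiomyocytes (CMs), so that both tTA and *miR-128* set them apart from Ctrl. Mice were kept on a C57BL/6 background, and the doxycycline schedule of these P7 hearts is not given in the sources used here. The RNA came from heart tissue, not from sorted CMs. The labels do not say whether the libraries of a group came from separate animals or pools, so the p-values measure only the spread between these samples, which may be technical.

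PRC2 places methyl groups on lysine 27 of histone H3, and the trimethylated mark (H3K27me3) accompanies silenced genes. EZH2 or EZH1 is the enzyme, SUZ12 is the scaffold, EED binds the mark and stimulates the enzyme, and RBBP4 or RBBP7 contacts histones. EZH2 is typical of dividing cells and EZH1 of resting ones. Accessory subunits divide the complex into PRC2.1, which holds a Polycomb-like protein (PHF1, MTF2 or PHF19), and PRC2.2, which holds JARID2 and AEBP2. In the heart PRC2 restrains alternative gene programs during development. The study proposed *Suz12* as a direct target of *miR-128*, and the comparison asks how the genes of the complex stood when *miR-128* was overexpressed.

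Library totals ranged from 8096870 to 14359838 counts, and a detection floor of 3 counts was 0.214 to 0.36 CPM, counts scaled to 1e6, of the effective library size, which covers counting error only. Of the miRNA's own genes, *Mir128-2* had 2 counts in WH9, 10 in WH10 and 0 in Ctrl, and *Mir128-1* had 0 throughout. Mature miRNA is not measured by these libraries. The groups differed in sex-linked transcripts. *Xist*, the RNA of the inactive X chromosome, had 11339 to 14543 counts in Ctrl and 94 to 132 in miR-128OE libraries, and the Y-linked *Ddx3y* had 7 to 13 against 1442 to 1768. Sex and genotype cannot be told apart in these libraries, autosomal genes included. The Ctrl libraries also stood apart from each other by genes of the atria, picked after their values were seen, with WH7 the highest and WH8 the lowest of the 4 libraries. The summed level of *Myl7*, *Nppa*, *Sln* and *Myl4* was 5882 CPM in WH7 and 702 in WH8, against 2110 in WH9 and 2702 in WH10. Markers of cell types were called at an edgeR adjusted p under 0.05. Of all genes tested, 16.5% were called higher and 15% lower in miR-128OE hearts. Of 8 CM markers, 4 were higher and 1 was lower in miR-128OE hearts. Their summed level was 42904 and 46505 CPM in Ctrl against 56115 and 55294 in miR-128OE libraries. Of 8 endothelial markers, 2 were higher and 2 were lower, with log2 fold changes from −0.36 to 0.42. They summed to between 1874 and 1958 CPM in all 4 libraries. The 8 fibroblast markers summed to between 6464 and 9950 CPM in Ctrl and between 8764 and 9497 in miR-128OE libraries. Beside the same shares, 3 of 8 markers for smooth muscle and pericytes were higher and 1 lower, and 1 of 8 for macrophages was lower. Of 6 for Schwann cells, 1 was higher and 1 lower. For adipocytes 3 of 5 and for erythroid cells 1 of 3 were higher. Counts in lists this small were not tested against those shares. Of 6 epicardial markers 0 were called by edgeR, with 2 at an unadjusted p under 0.05. The part of cell make-up in the results on PRC2 was not tested, and fewer cells of a type and less RNA per cell cannot be told apart in whole hearts.

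In miR-128OE hearts, *Ezh2* and the PRC2.1 gene *Mtf2* were lower, and *Rbbp4* and *Rbbp7* were higher. *Ezh2* fell by 32.9% and *Mtf2* by 38.8%, whereas *Rbbp4* rose by 19.1% and *Rbbp7* by 21.5%. The other 6 genes, *Suz12* among them, did not pass the threshold. Values are normalized counts, that is counts brought to 1 common library size with TMM factors (trimmed mean of M values). Genes were tested with edgeR's quasi-likelihood test, the p-values of 14266 genes were adjusted by Benjamini-Hochberg, and a gene was called at an adjusted p under 0.05. Thus 4 of 10 PRC2 genes were called, beside 31.5% of all genes tested. The 2 lower genes stand beside 15% of all genes, and the 2 higher ones beside 16.5%. The libraries of the groups did not overlap for 8 of the 10 genes, beside 68.1% of all genes. For 5 of them both miR-128OE libraries were below both Ctrl libraries, beside 34.4% of all genes, and for 3 they were above, beside 33.7%. The called PRC2 genes numbered 3 in DESeq2, beside 22.7% of all genes, 4 when libraries were scaled by total counts, beside 32%, all of them lower (*Suz12*, *Ezh1*, *Ezh2* and *Mtf2*), and 6 without WH7, beside 34.6%.

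**Figure D1:**
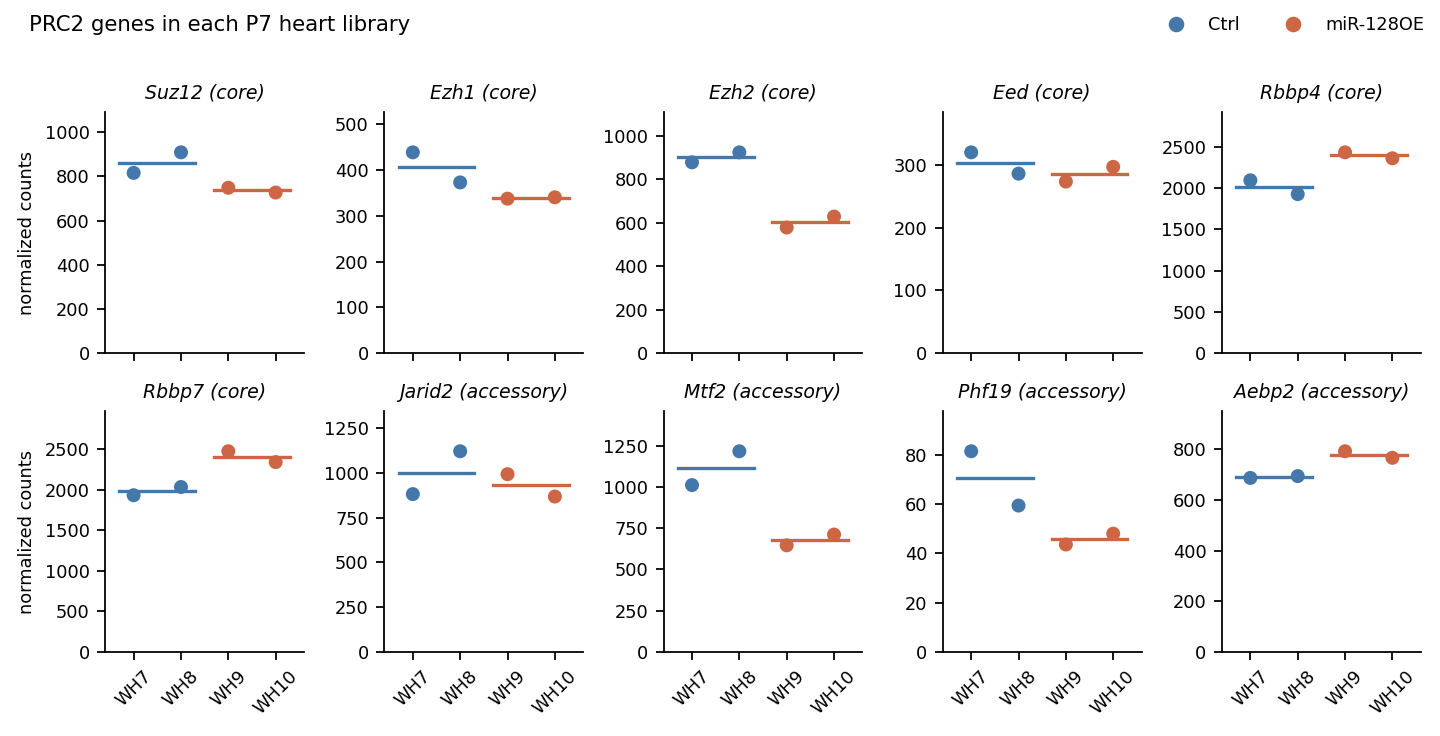
Normalized counts (vertical axis, from 0) of each PRC2 gene by library (Ctrl, WH7 and WH8, and miR-128OE, WH9 and WH10), with points for libraries and lines for group means (n = 2). Both miR-128OE libraries lie below both Ctrl libraries for *Suz12*, *Ezh1*, *Ezh2*, *Mtf2* and *Phf19*, above them for *Rbbp4*, *Rbbp7* and *Aebp2*, and the groups overlap for *Eed* and *Jarid2*.

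The core genes did not move as 1 group. Among the 6, 1 was lower, 2 were higher and 3 were not called, beside 15% of all genes lower and 16.5% higher. Their median log2 fold change (log2FC) was −0.16. Among the 4 accessory genes, 1 was lower, 0 were higher and 3 were not called, beside the same shares, with a median of −0.37. The counts in groups this small were not tested against those shares. The median of all genes tested was −0.01. Within the core, *Suz12*, *Eed*, *Ezh1* and *Ezh2* had negative log2 fold changes, from −0.58 to −0.09, and *Rbbp4* and *Rbbp7* had positive ones, 0.25 and 0.28. The core and accessory groups were not tested against each other, since their members were chosen with results of these data known.

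*Ezh2*, the catalytic subunit of dividing cells, had 877 normalized counts in WH7 and 923 in WH8, against 577 in WH9 and 627 in WH10. Each miR-128OE library was thus below both Ctrl libraries, by more than the spread within either group. The mean was 900.0 ± 32.5 in Ctrl and 602 ± 35.5 in miR-128OE hearts (SD, n = 2), with a log2FC of −0.58 (standard error, SE, 0.09, edgeR adjusted p = 0.00146). The call held under all 14 alternatives, with log2FCs from −0.68 to −0.51.

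*Ezh1*, the other catalytic subunit, had 439 normalized counts in WH7, 373 in WH8, 338 in WH9 and 341 in WH10. The miR-128OE libraries were close to each other and below both Ctrl libraries, whose spread was about as large as the difference. The log2FC was −0.27 (SE 0.12, edgeR adjusted p = 0.11), with a 95% interval from −0.53 to −0.01. The edgeR adjusted p was 0.0422 when scaled by total counts and 0.0241 without WH8.

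*Suz12*, the scaffold, had 816 normalized counts in WH7 and 909 in WH8, against 749 in WH9 and 727 in WH10. The groups did not overlap, but the gap between the nearest libraries was smaller than the gap between the Ctrl libraries. The log2FC was −0.22 (SE 0.09, edgeR adjusted p = 0.0857), with a 95% interval from −0.42 to −0.02. A fall of *Suz12* mRNA as large as that of *Ezh2* lay outside this interval. The call changed with the scaling of libraries and with 1 Ctrl library, with edgeR adjusted p-values of 0.0214 with total counts, 0.0431 with upper-quartile factors and 0.0203 without WH7.

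*Eed*, the reader of H3K27me3, had 321 and 287 normalized counts in Ctrl and 274 and 298 in miR-128OE libraries, which overlapped. Its log2FC was −0.09 (edgeR adjusted p = 0.596), with a 95% interval from −0.37 to 0.18. *Eed* was thus not shown to differ, and a log2FC of the size of that of *Suz12* lay within its interval.

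*Rbbp4*, a histone-binding protein that PRC2 shares with other complexes, had 2097 and 1929 normalized counts in Ctrl and 2437 and 2364 in miR-128OE libraries. Its log2FC was 0.25 (SE 0.08, edgeR adjusted p = 0.0387). *Rbbp7*, its X-linked paralog, had 1935 and 2037 normalized counts in Ctrl and 2478 and 2344 in miR-128OE libraries. Its log2FC was 0.28 (SE 0.08, edgeR adjusted p = 0.024). Both genes kept their direction under all alternatives that included them, with log2FCs from 0.15 to 0.34. Their calls were less firm. With total counts, under which the median of all genes moved to −0.11, the edgeR adjusted p was 0.172 for *Rbbp4* and 0.0959 for *Rbbp7*. *Rbbp4* also lost the call with upper-quartile factors (edgeR adjusted p = 0.0859) and in DESeq2 (adjusted p = 0.0593). Both calls were lost without WH9, with edgeR adjusted p-values of 0.247 for *Rbbp4* and 0.212 for *Rbbp7*, and without WH10, with 0.147 and 0.0897. That of *Rbbp4* was also lost without WH8 (edgeR adjusted p = 0.0699).

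The sources do not say whether counting used strand, so exons of neighbors on the opposite strand may bear on these values. *Rbbp4* exons overlapped those of the lincRNA *Gm26722* over 796 bp and those of *Sync*, a muscle gene with 28 to 60 counts per library, over 782 bp. Exons of *Suz12*, *Ezh2* and *Eed* overlapped those of noncoding genes over 178, 174 and 261 bp. The part of such reads in the values was not tested. *Mtf2* exons overlapped those of *Tmed5* over 395 bp, and *Tmed5* had a log2FC of 0.19 (edgeR adjusted p = 0.234). *Rbbp7* exons overlapped those of *Txlng* over 174 bp, and *Txlng* had a log2FC of −0.30 (edgeR adjusted p = 0.123). Of the stretches of 50 nucleotides in its longest coding transcript, *Rbbp7* shared 9.38% with transcripts of other genes, all of the pseudogene *Gm6382*. The figure was 0.872% for *Rbbp4*, 0.612% for *Aebp2*, 0.0249% for *Mtf2* and 0% for the other 6. The coding sequences of *Rbbp4* and *Rbbp7* were 78.4% identical where they aligned, but their longest identical run was 20 nucleotides. For *Ezh1* and *Ezh2* the identity was 70.5% and the longest run 17 nucleotides.

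*Mtf2*, a Polycomb-like subunit that guides PRC2.1 to unmethylated CpG islands, had the lowest p-value of the 10. It had 1011 normalized counts in WH7 and 1215 in WH8, against 646 in WH9 and 711 in WH10. The groups were well separated, and the miR-128OE libraries were closer to each other than the Ctrl libraries were. The mean was 1113 ± 145 in Ctrl and 678 ± 46.1 in miR-128OE hearts (SD, n = 2), with a log2FC of −0.71 (SE 0.11, edgeR adjusted p = 0.00128). The call held under all 14 alternatives, with log2FCs from −0.84 to −0.57.

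*Phf19*, another Polycomb-like subunit, was the lowest of the 10, with 89 and 42 raw counts in Ctrl and 44 and 57 in miR-128OE libraries. Scaled for library size these were 81.4 and 59.4 normalized counts against 43.6 and 47.9. Its log2FC of −0.64 was of the size of that of *Mtf2*, but with an SE of 0.26 it was not called (edgeR adjusted p = 0.0915). It was called without WH8 (edgeR adjusted p = 0.0344). The third Polycomb-like gene, *Phf1*, which is not among the 10, had 383 and 492 normalized counts in Ctrl and 363 and 375 in miR-128OE libraries. Its log2FC was −0.23 (edgeR adjusted p = 0.205, and 0.0143 without WH7).

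The PRC2.2 genes showed no such fall. *Jarid2*, which encodes a DNA-binding cofactor with a part in heart development, had 882 and 1122 normalized counts in Ctrl and 994 and 869 in miR-128OE libraries. Its groups overlapped, and its log2FC of −0.10 (edgeR adjusted p = 0.559) turned to 0.079 without WH8 and reached −0.27 (adjusted p = 0.0469) without WH7. *Aebp2*, a zinc finger cofactor, had 687 and 694 normalized counts in Ctrl and 792 and 766 in miR-128OE libraries. Both miR-128OE libraries were above both Ctrl libraries, but the difference did not pass the threshold (log2FC 0.17, SE 0.08, edgeR adjusted p = 0.142). With an offset for GC content and length it did (edgeR adjusted p = 0.0381).

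**Figure D2:**
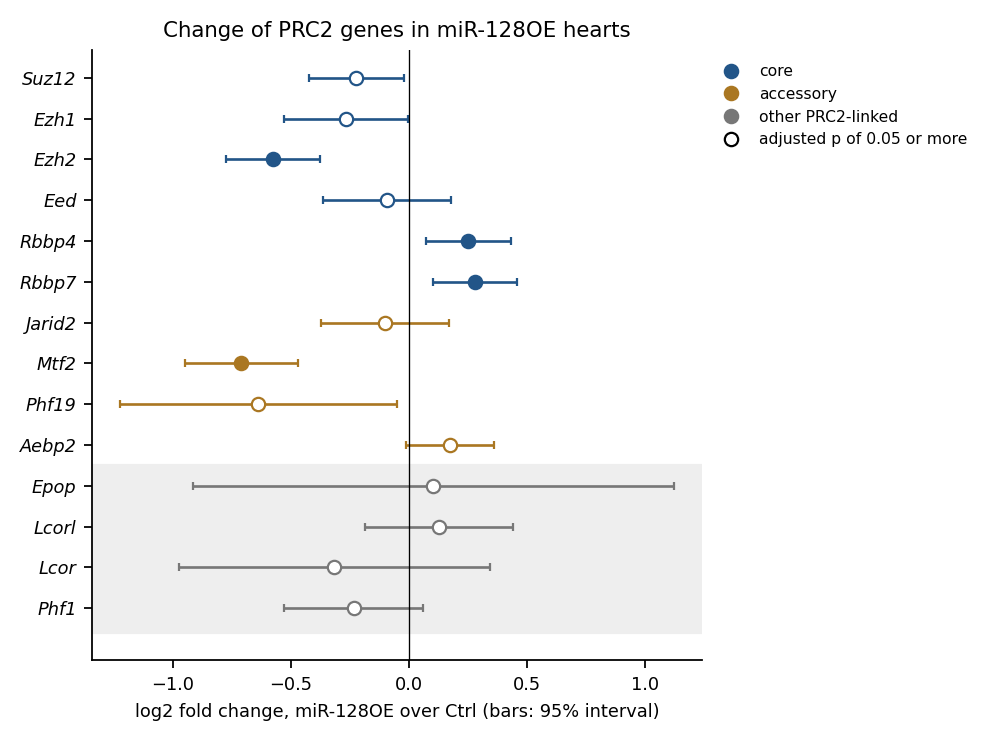
Log2 fold change of miR-128OE over Ctrl hearts (horizontal axis) for the 10 PRC2 genes and, on gray, 4 other PRC2-linked genes, with 95% intervals from the edgeR fit (n = 2 per group). Filled points, *Ezh2* and *Mtf2* on the left and *Rbbp4* and *Rbbp7* on the right, had an adjusted p under 0.05, and the interval of *Epop* is wide at its low counts.

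Of the other PRC2-linked genes, 4 were tested and 0 were called by edgeR, with 0 at an unadjusted p under 0.05 and 0 called by DESeq2, which gave *Epop* no adjusted p. Besides *Phf1*, these were *Epop*, an elongin-binding subunit of PRC2.1 (log2FC 0.10), and *Lcor* (−0.32) and *Lcorl* (0.13), whose PALI proteins also join PRC2.1. Their edgeR adjusted p-values were 0.884, 0.446 and 0.51. *Ezhip*, an inhibitor of EZH2, had 1 count in WH10 and 0 in the other 3 libraries.

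The make-up of the complex was then read as ratios within a library, which no scaling of libraries can change. To compare genes, counts were divided by the kilobases of all annotated exons of a gene. The *Ezh1* to *Ezh2* ratio was 0.449 in WH7 and 0.363 in WH8, against 0.525 in WH9 and 0.487 in WH10. *Ezh2* thus exceeded *Ezh1* in every library, and the ratio was higher in both miR-128OE libraries than in either Ctrl library. The mean was 0.406 ± 0.0611 in Ctrl and 0.506 ± 0.0267 in miR-128OE hearts (SD, n = 2), 1.25-fold higher by geometric means. The exact permutation test gave a two-sided p of 0.33, the smallest that 2 against 2 libraries allow, so this design cannot call the ratio. The log2 difference was 0.33, and it was 0.17 without WH8. As a share of the reads on both genes, *Ezh1* took 33.4% in WH7 (95% exact Clopper-Pearson interval 30.9% to 35.9%), 28.8% in WH8 (25.9% to 31.8%), 36.9% in WH9 (33.8% to 40.1%) and 35.2% in WH10 (32.4% to 38.0%). The interval of WH7 overlapped those of both miR-128OE libraries. The intervals cover counting error only, as PCR copies of a molecule were not told apart by identifiers.

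Among the ratios read, the largest shift was between accessory genes of the 2 forms. The ratio of *Jarid2* plus *Aebp2* to *Mtf2* plus *Phf19* was 0.83 in WH7 and 0.826 in WH8, against 1.5 in WH9 and 1.25 in WH10. *Jarid2* plus *Aebp2* were thus below *Mtf2* plus *Phf19* in both Ctrl libraries and above them in both miR-128OE libraries. The log2 difference was 0.72, or 1.65-fold, and between 0.59 and 0.86 with each library left out. With coding length in place of all exons, the mean ratio was 1.11 in Ctrl and 1.92 in miR-128OE hearts. The side of 1 on which a group lies thus depends on the length used, and the rise does not. *Mtf2* made up most of the second sum. Its means were 195 normalized counts per kilobase of exon in Ctrl and 119 in miR-128OE hearts, against 14.0 and 9.08 for *Phf19*. *Phf1*, which also belongs to PRC2.1, was left out, with means of 126 and 106. A ratio that includes *Phf1* was not computed. The *Suz12* to *Ezh2* ratio was 1.26 and 1.33 in Ctrl and 1.75 and 1.56 in miR-128OE libraries, a log2 difference of 0.36. The ratio of *Rbbp4* to *Rbbp7* did not separate the groups, with 0.361 and 0.315 in Ctrl and 0.327 and 0.336 in miR-128OE libraries. These 3 ratios were chosen with results of these data known and were given no test.

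**Figure D3:**
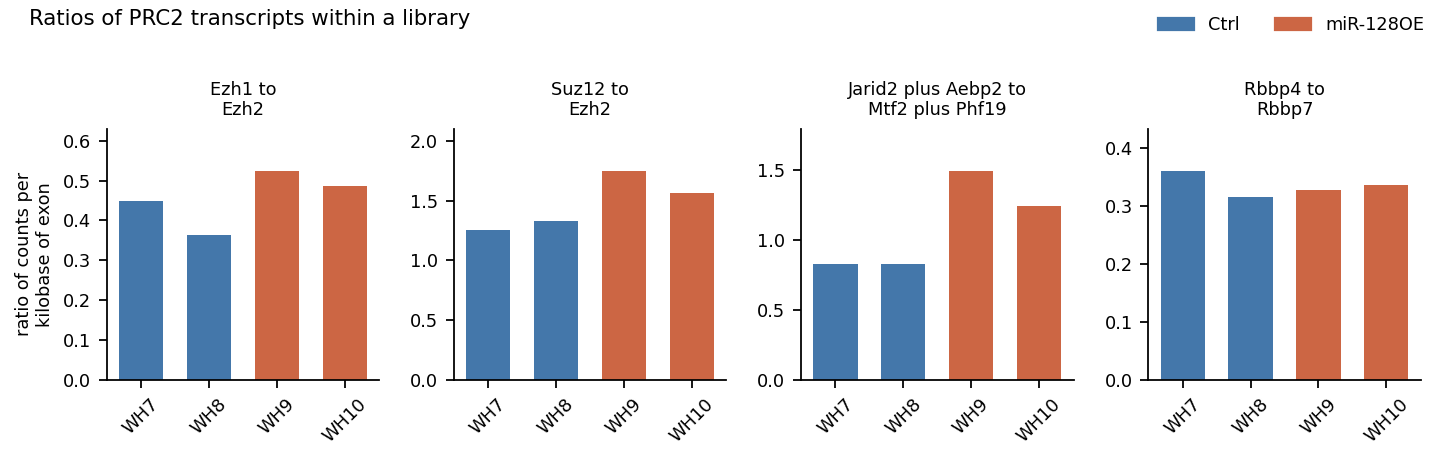
Ratios of counts per kilobase of exon (vertical axes, from 0) between PRC2 genes in each library, with 1 bar per library. The *Ezh1* to *Ezh2* ratio runs from 0.363 to 0.449 in Ctrl and from 0.487 to 0.525 in miR-128OE libraries. The ratio of *Jarid2* plus *Aebp2* to *Mtf2* plus *Phf19* runs from 0.826 to 0.83 and from 1.25 to 1.5.

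By level per kilobase of exon, *Rbbp7* was the highest of the 10 genes in Ctrl hearts, with 683 ± 24.7 normalized counts per kilobase (SD, n = 2). It was followed by *Rbbp4* (230.2 ± 13.6), *Mtf2* (195 ± 25.4), *Suz12* (174 ± 13.3), *Ezh2* (135 ± 4.86), *Jarid2* (103 ± 17.4), *Eed* (79.4 ± 6.29), *Aebp2* (70.1 ± 0.515), *Ezh1* (54.6 ± 6.26) and *Phf19* (14.0 ± 3.09). Among neighbors in this order, only the Ctrl libraries of *Mtf2* and *Suz12* overlapped. In miR-128OE hearts *Suz12* stood above *Mtf2* by mean (149 against 119) and in both libraries. The means of *Jarid2* (95.9) and *Ezh2* (90.2) also changed places, but their libraries overlapped, with 102 against 86.4 in WH9 and 89.4 against 94.0 in WH10. Those of *Aebp2* (79.1) and *Eed* (74.7) did as well, with 80.4 against 71.6 in WH9 and 77.8 for both in WH10. The order depends on the gene models. With coding length, the mean ratio of *Rbbp4* to *Rbbp7* in Ctrl was 1.15 in place of 0.338.

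Matches to the seed of *miR-128-3p* were then searched in the 3′UTR, taking for each gene its longest one annotated, since the study predicted such a site in *Suz12*. The study also reported that a *miR-128* mimic lowered luciferase activity from the intact *Suz12* 3′UTR, compared with a mutated one. In neonatal CMs it reported less SUZ12 protein with the mimic and more with an inhibitor. In P7 hearts without *miR-128* it reported more SUZ12 protein, and more SUZ12, EZH2 and H3K27me3 at the promoter of the p27 gene. Those assays have no counterpart in the mRNA counts used here. From its RNA-seq, it reported that genes lower in miR-128OE hearts were enriched for genes lowered by siRNA against PRC2 components, *Suz12* above all. That enrichment was not repeated here. The mature sequence, from RefSeq (GRCm38.p6), lies at chr1:128202404-128202424 on the plus strand and at chr9:112118644-112118664 on the minus strand, with the seed (bases 2 to 8) in capitals.
miR-128-3p: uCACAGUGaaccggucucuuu

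A 7mer-m8 match is CACTGTG and a 7mer-A1 match is ACTGTGA. Of the 10 genes, 3 carried a match of at least 7 bases, beside 31% of the 13495 tested genes with an annotated 3′UTR. *Suz12* carried 3, beside 2.66% of those genes with 3 or more. *Jarid2* and *Phf19* each carried 1. The matches are shown on the transcribed strand in capitals with their flanks, in coordinates of GRCm38, to show what the miRNA could pair with.
Suz12 7mer-m8, chr11:80032991-80032997, plus strand: cagaagatgcCACTGTGgggagggtgt
Suz12 7mer-m8, chr11:80033214-80033220, plus strand: cagctccaagCACTGTGgttgaataac
Suz12 7mer-A1, chr11:80033460-80033466, plus strand: gatgtgtttaACTGTGAggctatttaa
Jarid2 7mer-A1, chr13:44920544-44920550, plus strand: ctgaaggcaaACTGTGAggtttgagtg
Phf19 7mer-m8, chr2:34894954-34894960, minus strand: ccatcccaaaCACTGTGtgtacagcca

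Beside these matches, the log2FCs were −0.22 for *Suz12*, −0.10 for *Jarid2* and −0.64 for *Phf19*, and none of the 3 was called. *Ezh2* and *Mtf2*, the PRC2 genes that fell, carried 0 matches of 7 bases in 3′UTRs of 402 and 2059 nucleotides. The 3′UTRs used for *Ezh2* and *Eed* were each of an annotated transcript of 5 exons. Over all coding transcripts with a 3′UTR, 4 of *Ezh2* and 2 of *Eed*, 0 matches of at least 7 bases were found. *Ezh2* had 1 match of 6 bases, as did *Ezh1* and *Aebp2*, and *Rbbp4* had 2. In a 3′UTR of another *Ezh1* transcript 1 match of at least 7 bases was found. A match describes letters in a transcript and does not show that the miRNA acts on it, and changes in protein without a change in mRNA would not be seen here.

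**Figure D4:**
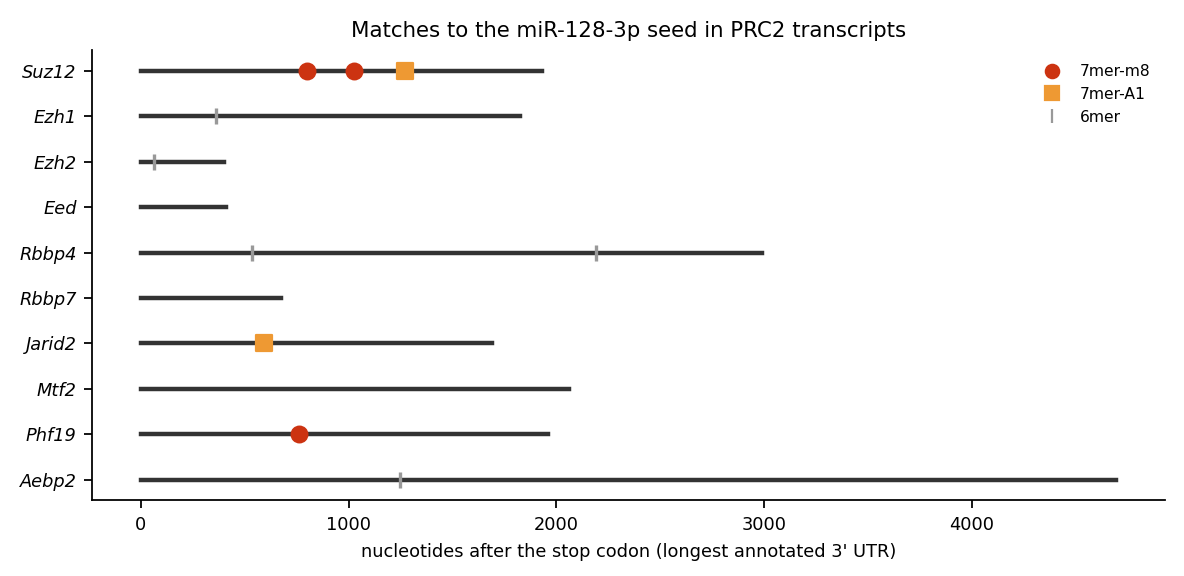
Matches to the *miR-128-3p* seed along the 3′UTR (longest one annotated) of each PRC2 gene, in nucleotides after the stop codon (horizontal axis), with 1 line per gene and symbols for 7mer-m8, 7mer-A1 and 6mer matches. *Suz12* carries 3 matches of 7 bases, at 801, 1024 and 1270 nucleotides, *Jarid2* and *Phf19* carry 1 each, and *Eed*, *Rbbp7* and *Mtf2* carry none.

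PRC2 genes are known targets of the E2F factors that drive entry into S phase, so promoters from 250 bases before to 50 bases after the annotated starts (RefSeq, GRCm38.p6) were searched on both strands for 4 forms of the E2F motif (TTTCCCGC, TTTCGCGC, TTTGCCGC and TTTGGCGC). Of the 10 genes, *Suz12*, *Ezh2* and *Phf19* carried 1 match each, beside 4.53% of the 11250 tested genes found in the table, and 2.26% of all 32851 promoters. The match of *Ezh2* lay 3 bases after its start, and those of *Suz12* and *Phf19* began 219 and 208 bases before theirs. They are shown on the strand of the gene, with the motif in capitals, which in *Phf19* reads on the opposite strand.
Ezh2 promoter, chr6:47595020-47595027, minus strand: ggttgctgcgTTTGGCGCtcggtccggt
Suz12 promoter, chr11:79992887-79992894, plus strand: gacccctcatTTTCCCGCgaattcagtt
Phf19 promoter, chr2:34914177-34914184, minus strand: tcaataattcGCGGGAAAacgcgaaaaa

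All 3 of these genes had negative log2FCs, as did 7 of the 10 PRC2 genes and 7327 of the 14266 genes tested. Of the 3, only *Ezh2* was called. *Mtf2*, which fell more, carried 0 matches at its 2 annotated starts. TTTGAA, the core of the cell cycle homology region of promoters active in G2 and mitosis, stood in promoters of *Suz12*, *Eed*, *Mtf2* and *Aebp2*, beside 14.2% of the tested genes. These letters are a description and not evidence of binding.

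Of 20 proliferation genes listed, 0 were higher, 10 were lower and 10 were not called, beside 16.5% and 15% of all genes higher and lower, with a median log2FC of −0.41, and their summed level was 1041 and 1260 CPM in Ctrl against 776 and 783 in miR-128OE libraries. The 3 with the smallest p-values were *Mcm6*, a helicase subunit of replication (log2FC −0.999), *Mki67*, which encodes Ki67 (−1.15), and *Cenpe*, a kinetochore motor (−1.24), with edgeR adjusted p-values of 0.00015, 0.000388 and 0.000459. The log2FCs of *Ezh2* (−0.58) and *Mtf2* (−0.71) were nearer to 0 than these 3, which were picked by p-value. They were further from 0 than the median of the list (−0.41). The study places p27, cyclin E and CDK2 beyond SUZ12. It measured cyclin E and CDK2 as protein, and p27 as protein and mRNA, in hearts without *miR-128*. After *Suz12* knockdown it measured all of them as protein. The values here are of mRNA in hearts with more *miR-128*, an unlike measure and model. *Cdk2* (−0.40), a kinase of S phase entry, was lower, as was *Ccne2* (−0.98), which was listed here as 1 of the genes for cyclin E. *Cdkn1b*, which encodes the inhibitor p27 (0.14), and *Ccne1* (0.28) were not called, with edgeR adjusted p-values of 0.246 and 0.363. The *Ccne2* call was lost in DESeq2 (adjusted p = 0.0894), and without WH8, WH9 or WH10 in edgeR (adjusted p = 0.0939, 0.228 and 0.0504). That of *Cdk2* was lost without WH9 (edgeR adjusted p = 0.134) or WH10 (0.0642).

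RBBP4 and RBBP7 also serve the NuRD, Sin3, CAF-1 and HAT1 complexes. Of 16 other genes of these complexes, 2 were higher, 4 were lower and 10 were not called, beside 16.5% and 15% of all genes, with a median log2FC of −0.06. *Hdac1*, a histone deacetylase, fell from 921 ± 45.8 to 562 ± 18.99 normalized counts (SD, n = 2), with a log2FC of −0.72 (edgeR adjusted p = 0.000482). *Chaf1a*, the large subunit of the replication-coupled histone chaperone CAF-1, had a log2FC of −0.73 (edgeR adjusted p = 0.00194). *Mbd2*, a methyl-CpG-binding protein of NuRD, had one of 0.39 (edgeR adjusted p = 0.00648), a call that was lost without WH9 (adjusted p = 0.0741) or WH10 (0.0594).

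PRC1 binds H3K27me3 and ubiquitinates histone H2A. Of its 24 genes, 3 were higher, 7 were lower and 14 were not called, beside 16.5% and 15% of all genes, with a median log2FC of −0.21. *Cbx6*, which encodes a reader of H3K27me3, had 2672 and 2449 normalized counts in Ctrl and 2006 and 1948 in miR-128OE libraries (log2FC −0.37, edgeR adjusted p = 0.00767). *Scml2*, on the X chromosome, had a log2FC of −1.003 (edgeR adjusted p = 0.0112). Neither call held without WH9, with edgeR adjusted p-values of 0.0936 for *Cbx6* and 0.112 for *Scml2*, and that of *Cbx6* was also lost without WH10 (0.112). Of the 4 PR-DUB genes, which remove ubiquitin from H2A, 0 were called by edgeR, with 2 at an unadjusted p under 0.05 (*Asxl2* and *Asxl3*) and 0 called by DESeq2. *Bap1*, the enzyme, had a log2FC of 0.14 (edgeR adjusted p = 0.272). Its cofactors *Asxl1* (−0.23), *Asxl2* (−0.21) and *Asxl3* (−0.58) had edgeR adjusted p-values of 0.176, 0.08 and 0.107, and without WH7 the first of these was 0.00258 and the next 0.0419. That of *Asxl2* was 0.0193 with total counts and 0.0392 with upper-quartile factors.

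The H3K27 demethylases oppose PRC2. All 3 genes of the family were called, beside 31.5% of all genes, but 2 of them are sex-linked, and the groups also differ in sex. *Kdm6b* (JMJD3) had 1042 and 977 normalized counts in Ctrl and 1466 and 1339 in miR-128OE libraries (log2FC 0.47, edgeR adjusted p = 0.00336, and 0.0644 without WH9). *Kdm6a* (UTX), an X-linked gene known to escape X inactivation, had 554 and 585 normalized counts against 283 and 288 (log2FC −0.99, edgeR adjusted p = 0.000209). Its Y-linked relative *Uty*, whose demethylase activity is weak, had 0 and 1 raw counts in Ctrl and 261 and 325 in miR-128OE libraries. Summed, *Kdm6a* and *Uty* came to 570.4 ± 22.9 normalized counts in Ctrl and 551 ± 13.7 in miR-128OE hearts (SD, n = 2). The fall of *Kdm6a* cannot be told apart from the sex of the hearts, and neither can the rise of the X-linked *Rbbp7*.

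Of 14 genes known to be repressed by PRC2 in the developing heart, 10 could be tested, of which 1 was higher, 1 was lower and 8 were not called, near the 16.5% and 15% of all genes, with a median log2FC of 0.14. The list includes the atrial gene *Myl7*. Its summed level was 2200 CPM in WH7 and 546 in WH8, against 1144 in each miR-128OE library. The part of atrial tissue in these results was not tested. *Cdkn1a*, which encodes the cell cycle inhibitor p21, rose from 636 ± 31.8 to 850.2 ± 10.8 normalized counts (SD, n = 2), with a log2FC of 0.42 (edgeR adjusted p = 0.00603). *Irx4*, a ventricular transcription factor, fell with a log2FC of −0.63 (edgeR adjusted p = 0.0113), which was −0.88 without WH7 and −0.35 without WH8. *Tbx3*, a factor of the conduction system, had one of 0.34 (edgeR adjusted p = 0.0886), which was called without WH8 (0.00153), without the filter on low counts (0.0125) and with the GC and length offset (0.0441). The calls of *Cdkn1a* and *Irx4* were lost without WH9, with edgeR adjusted p-values of 0.0578 and 0.0831, or WH10, with 0.0585 and 0.0573. The inhibitors *Cdkn2a* and *Cdkn2b*, classical PRC2 targets, stayed under the filter on low counts, with 2 to 11 counts per library. *Isl1* and *Pax6*, 2 further targets, also did, with 1 to 7 counts.

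**Figure D5:**
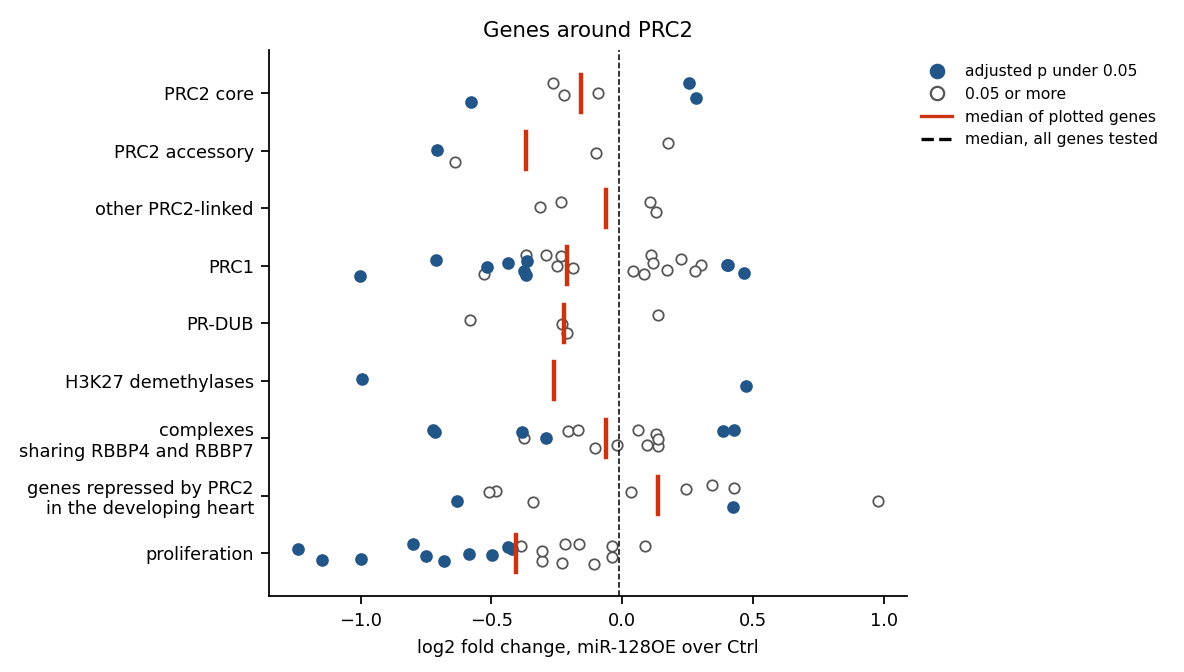
Log2 fold change of miR-128OE over Ctrl hearts (horizontal axis) for each tested gene of PRC2 and of the lists around it, with filled points for an adjusted p under 0.05, red lines for medians of the plotted genes and a dashed line for the median of all genes. *Uty* is left out at 8.61, so the median drawn for demethylases is of 2 genes, and the proliferation list has its 10 calls on the left.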

How the data were processed

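The values were RNA-seq read counts from P7 hearts. Per the study's methods, the authors discarded reads of low quality, mapped the remainder with TopHat2 to mm10 (GRCm38) and deposited raw counts of reads on known genes. Gene models, strand and the rule for reads on several genes are not given in the sources used here. The quasi-likelihood test of edgeR 4.0.16 was run under R 4.3.3 with filterByExpr defaults (minimum count 10, total 15) and TMM factors. It covered 14266 genes, with an adjusted p threshold of 0.05. A run on simulated data changed a small part of the genes, by more than any PRC2 gene changed here. It therefore does not bear on changes of the size seen in PRC2 genes. Standard errors were derived from the log2FC and its F statistic. Of 24454 Entrez identifiers, 24381 matched a symbol in RefSeq or GENCODE M21. Lengths and 3′UTRs came from GENCODE M21, and ratios were computed in Python 3.11.15 and scipy 1.17.1. The PRC2 genes, related lists and markers were chosen with earlier results of these data known. All 10 PRC2 genes were named, all genes of lists with at most 5 genes, and the 3 with the smallest p-value in longer lists, of which 1 is not reported here. Other named genes (*Sync*, *Tmed5*, *Txlng*, the atrial genes, *Cdkn2a*, *Cdkn2b*, *Isl1* and *Pax6*) were picked after their values were seen. Alternatives were the likelihood ratio, exact and DESeq2 1.42.0 tests, other factors and filters, autosomal genes alone, a loess offset (span 0.5) by GC content and length, and each library left out.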

Additional observations from a re-analysis of the deposited data

How the results depend on the processing

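The number of PRC2 genes called was 4, and with each library left out it ran from 2 to 6. It was 2 without WH9 or WH10, when only *Ezh2* and *Mtf2* remained and the share of all genes called fell to 10.7% and 15.6%. A lone miR-128OE library is then assumed to vary like the Ctrl pair. Over the other 10 alternatives it was 3 to 5. With total counts it was 4, but these were *Suz12*, *Ezh1*, *Ezh2* and *Mtf2*. Of the tested genes in the related lists, 33 were called, beside 31.5% of all genes tested. This count was not tested against that share. With each library left out, the count of related genes ran from 9 to 40 (9 without WH9, 13 without WH10). The 10.7% and 15.6% given above are the shares of all genes in those same fits without WH9 and without WH10. The log2 fold change of *Jarid2* turned positive with the GC and length offset (0.011) and ran from −0.27 without WH7 to 0.079 without WH8, with 0.010 without WH10. That of *Epop* turned negative with the offset (−0.0052) and ran from −0.29 without WH10 to 0.40 without WH9, with −0.10 without WH7. Of the 10 genes, 0 carried an 8mer match to the seed, beside 6.03% of the tested genes with an annotated 3′UTR. A match of at least 6 bases was carried by 7 of the 10, beside 47.1% of those genes. The log2 difference of the *Jarid2* plus *Aebp2* to *Mtf2* plus *Phf19* ratio was 0.72, 0.78 with coding length and 0.75 with the longest transcript. These moves were above the Ctrl spread (SD 0.0045) and below the miR-128OE spread (SD 0.19). No paired analysis was possible because the labels give no replicate numbers shared by the groups. At these counts, the interval of *Phf19* spans −1.22 to −0.05 on the log2 scale, so its size is poorly known.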
